A study of Mus musculus with 30 samples.

Results

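The 10 genes described here encode subunits of voltage-gated calcium channels and were followed in ribosome-associated RNA of the 2 main neuron classes of the female mouse nucleus accumbens. They were taken by symbol from the annotation and make up 10 of the 55335 genes counted. Of these, 8 encode the pore-forming subunit, namely Cacna1a, Cacna1b, Cacna1c, Cacna1d, Cacna1e, Cacna1g, Cacna1h and Cacna1i. The other two, Cacna2d1 and Cacna2d3, encode α2δ subunits. All 10 passed the filter on low counts, which 19368 genes passed.

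A voltage-gated calcium channel opens when the membrane depolarizes and lets calcium into the neuron, where it triggers transmitter release, shapes firing and signals to the nucleus. The pore-forming subunit sets the current type. P/Q-type (Cacna1a), N-type (Cacna1b), R-type (Cacna1e) and L-type channels (Cacna1c and Cacna1d) need strong depolarization, whereas T-type channels (Cacna1g, Cacna1h and Cacna1i) open near the resting potential. The extracellular α2δ subunit brings high-voltage-activated channels to the membrane and to release sites. Medium spiny neurons, the projection neurons of the striatum, use these currents for release from their axon collaterals, for plasticity of cortical inputs and for calcium-dependent control of their firing.

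The libraries were made by RiboTag, in which Cre recombinase switches on an HA-tagged ribosomal protein and polyribosomes are pulled down with an antibody against HA. In D1-Cre-RT mice Cre follows the D1 dopamine receptor gene, and in A2A-Cre-RT mice the A2A adenosine receptor gene, which marks neurons with D2 receptors, so that these libraries are called D2 here. Control mice were compared with mice that went through chronic witness defeat stress (CWDS) and were then grouped by social interaction as Resilient or Susceptible, which gave 6 groups of 5 libraries. All mice were female, and Controls carried the same Cre and RiboTag alleles as the stressed mice of their class. The sources used here give neither age nor background strain. Each library pooled accumbens punches of 4 mice with similar social interaction scores, taken 24 h after that test, and was prepared from 10 ng of RNA with a kit that amplifies full-length cDNA (SMART-Seq). The replicates are therefore pools, and the p-values measure the spread between pools. A level in such a library is a share of the pulled-down RNA, so fewer cells with a transcript and less of it per cell cannot be told apart.

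The gene counts per library were 28996168 to 65882152. Relative abundance is given as CPM, the count of a gene scaled to a common library total, with totals adjusted by TMM, a method that offsets differences in RNA composition. Of the 30 libraries, 5 stood apart, and each is named beside the results it touches. In D1 Susceptible replicate 1 a single feature, Gm42418, took 54.9% of the counts, against at most 5.46% in any other library. D2 Susceptible replicates 1 and 2 had 15822 and 16525 genes with a count, where 27 other libraries had 19605 to 22375. Summed D1 neuron markers (7 genes, among them Drd1 and Pdyn) were 1182 CPM in D2 Control replicate 5 and 1797 CPM in D2 Resilient replicate 5, where the other 13 D2 libraries had 268 to 689 CPM and the D1 libraries 1694 to 2548 CPM. Summed D2 neuron markers (5 genes) were 1120 to 2771 CPM in D1 and 4867 to 12799 CPM in D2 libraries. Within D1 they were highest in D1 Susceptible replicates 1, 4 and 5 (2771, 2671 and 2372 CPM) and D1 Resilient replicate 5 (2753 CPM). Drd1, Pdyn and Tac1 were higher in D1 Control and Drd2, Adora2a and Penk higher in D2 Control in all 5 libraries against all 5, as labelled.

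The pore-forming genes are related by descent, and the coding sequences of all 10 genes were compared to show which reads could fit more than 1 of them. Of the 45 pairs, 8 shared an identical run of at least 25 bases and 2 a run of at least 50. The longest, 68 bases, lay in the coding part of the T-type genes Cacna1g and Cacna1i. The 90-base windows that hold it lie in exon 11 of Cacna1g (chr11:94443176-94443265, GRCm38, minus strand) and in exon 12 of Cacna1i (chr15:80369677-80369766, plus strand). Cacna1h and Cacna1i shared 50 bases, within 90-base windows in exon 25 of Cacna1h (chr17:25383163-25383252, minus strand) and exon 25 of Cacna1i (chr15:80378169-80378258, plus strand). The coordinates are those of the windows, and each window is printed 5′ to 3′ along the transcript, with the shared run in capitals, to show where these genes could take each other's reads. Each pair of windows matched at 86 of 90 positions.
Cacna1g beside Cacna1i: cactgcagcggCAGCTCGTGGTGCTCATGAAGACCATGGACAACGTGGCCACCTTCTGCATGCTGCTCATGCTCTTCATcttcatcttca
Cacna1i beside Cacna1g: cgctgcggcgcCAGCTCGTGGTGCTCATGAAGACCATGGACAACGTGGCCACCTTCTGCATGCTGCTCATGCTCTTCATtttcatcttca
Cacna1h beside Cacna1i: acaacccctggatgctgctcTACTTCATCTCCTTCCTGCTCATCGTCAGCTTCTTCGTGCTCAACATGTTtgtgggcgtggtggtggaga
Cacna1i beside Cacna1h: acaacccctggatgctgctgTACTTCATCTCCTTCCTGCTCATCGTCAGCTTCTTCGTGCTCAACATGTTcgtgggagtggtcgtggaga
Of all 50-base stretches of the Cacna1g coding sequence, 0.255% occurred in Cacna1i, and none occurred in Cacna1h. The sources used here do not state the read length or the handling of reads with several matches, so counts within these runs are uncertain. Exons of Cacna1a, Cacna1d and Cacna1h also overlap those of Gm16183 (435 bases), Chdh (589 bases) and Tpsg1 (158 bases) on the opposite strand, and the sources used here do not state whether the counting used strand.

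Divided by exon length, which allows genes to be compared, Cacna2d3 was the most abundant of the 10 in every group. It stood at 36.2 ± 2.37 CPM per kb (mean ± SD, n = 5) in D1 Control and 34.7 ± 5.42 in D2 Control, and all its libraries lay above those of the next gene in each group. The R-type gene Cacna1e came second, at 15.1 ± 1.23 CPM per kb in D1 Control and 14.1 ± 0.660 in D2 Control. Cacna2d1 and the T-type gene Cacna1i followed, with 14.4 ± 2.41 and 11.3 ± 0.883 CPM per kb in D1 Control and 12.1 ± 0.682 and 12.9 ± 2.25 in D2 Control. Cacna1e overlapped Cacna2d1, and Cacna2d1 overlapped Cacna1i, in both Control groups, so the order of these neighbours was not settled beyond the spread between libraries.

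The pores best known from presynaptic terminals stood lower. The N-type gene Cacna1b was at 7.86 ± 0.386 CPM per kb in D1 Control and 6.58 ± 0.454 in D2 Control, above Cacna1a in all libraries of both groups (P/Q-type), at 5.14 ± 0.332 and 5.11 ± 0.512. The T-type gene Cacna1h (4.72 ± 0.742 and 4.28 ± 0.782) overlapped Cacna1a. Of the L-type genes, Cacna1c was at 3.27 ± 0.199 and 3.32 ± 0.482 CPM per kb, and Cacna1d, whose channels open at more negative voltages, at 1.67 ± 0.160 and 1.61 ± 0.150. Cacna1g was level with Cacna1d in D1 Control, at 1.65 ± 0.265 CPM per kb, and the lowest of the 10 in D2 Control, at 0.982 ± 0.338. With the length of the longest transcript in place of all exons, Cacna2d3, Cacna1e, Cacna2d1 and Cacna1i stayed the first 4 in every group, Cacna1h fell below Cacna1c in 5 of the 6, and Cacna1a stood above Cacna1b in D2 Control and D2 Susceptible.

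**Figure D1:**
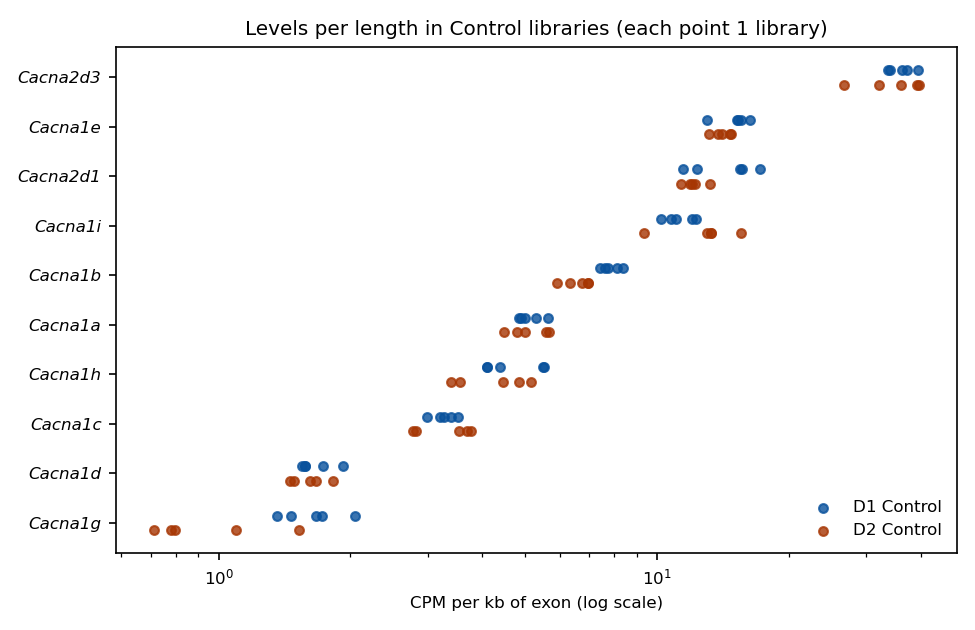
Level of each gene in the Control libraries, in CPM per kb of exon on a log scale, with 1 point per library (blue, D1 Control; brown, D2 Control). Cacna2d3 lies to the right of all other genes in both classes, and 4 of the 5 D2 points of Cacna1g lie below all others.

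Summed by current type, the T-type genes made up 34.8% ± 2.84 (SD, n = 5) of the pore-forming level per length in D1 Control and 37.0% ± 3.68 in D2 Control. The R-type share was 29.8% ± 2.65 and 28.9% ± 2.13, the N-type share 15.5% ± 0.437 and 13.5% ± 1.33, the P/Q-type share 10.1% ± 0.388 and 10.5% ± 1.29, and the L-type share 9.76% ± 0.352 and 10.1% ± 0.544. Most of the T-type level was Cacna1i, with 64.0% ± 2.00 in D1 Control and 70.7% ± 3.77 in D2 Control. Cacna1g held 9.35% ± 1.16 of it in D1 Control and 5.71% ± 2.92 in D2 Control. Of the L-type level 33.8% ± 3.11 and 32.9% ± 5.20 was Cacna1d. These shares rest on the length of all exons, which is 25228 bases for Cacna1e and 9862 for Cacna1i. Their longest transcripts have 14921 and 9781 bases, so the order of the T-type and R-type shares depends on the length used and is not settled. Shares of transcript level are not shares of current.

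The first comparison set the D1 class against the D2 class under each condition. Cacna1g was higher in D1 under all 3 conditions, by 1.68-fold in Control, 1.83-fold in Resilient and 2.24-fold in Susceptible libraries. Cacna1b was higher in D1 Susceptible, by 1.27-fold, and the other 8 genes were not called under any condition. By edgeR's quasi-likelihood test with Benjamini-Hochberg adjustment at 0.05, 1 of 10 members passed in Control, where 8.3% of all genes tested passed, 1 of 10 in Resilient, where 6.65% passed, and 2 of 10 in Susceptible, where 23.9% passed. These shares of the members are close to the background and say nothing of the members as a group. The median log2 difference of the members, D1 minus D2, was 0.08, 0.06 and 0.19, beside values of all genes that rounded to 0 in Control and Resilient and were 0.02 in Susceptible. The Susceptible median of the members was 0.12 without D1 Susceptible replicate 1 and 0.01 without the 5 libraries that stood apart.

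Cacna1g (ENSMUSG00000020866, chr11:94408391-94474198, minus strand) encodes a T-type pore known for burst firing in the thalamus. Replicates 1 to 5 of D1 Control had 20.7, 16.9, 17.5, 13.8 and 14.8 CPM, and those of D2 Control 7.23, 7.89, 8.05, 11.1 and 15.5 CPM. D2 Control replicate 5 alone, the library with the raised D1 markers, reached into the D1 range. The log2 difference was 0.75 (SE 0.235, edgeR adjusted p 0.0428).

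In the Resilient libraries Cacna1g was at 16.8, 17.0, 18.2, 16.4 and 12.2 CPM in D1 and 5.94, 8.40, 8.57, 10.0 and 11.0 CPM in D2. The groups did not overlap, as for 2 of the 10 members and 9.7% of all genes. The difference was 0.87 (SE 0.236, edgeR adjusted p 0.0173). In the Susceptible libraries it was at 17.9, 13.6, 13.3, 16.5 and 16.2 CPM in D1 and 3.41, 12.8, 5.72, 6.97 and 5.63 CPM in D2. These groups did not overlap either, although D2 Susceptible replicate 2 came close to the lowest D1 library, and the difference was 1.16 (SE 0.239, edgeR adjusted p 0.000872). Over the whole range the lowest Cacna1g value, in D2 Susceptible replicate 1, rested on 159 counts, and every other Cacna1g value on more.

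The Control call of Cacna1g stood near the threshold. It was lost with DESeq2's size factors (0.74, adjusted p 0.0504) and when replicate 1, 2, 3 or 5 of D1 Control or replicate 1, 2, 3 or 4 of D2 Control was left out (0.67 to 0.81, adjusted p 0.0546 to 0.116). Without D2 Control replicate 5 it was 0.98 (adjusted p 0.00704). The Resilient call was lost without D2 Resilient replicate 1 (0.76, adjusted p 0.0740), and the Susceptible call held with any 1 library left out (1.01 to 1.53). With all 5 libraries that stood apart left out, a choice made after the data were seen, the 3 differences were 0.97, 0.96 and 1.29, all called.

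**Figure D2:**
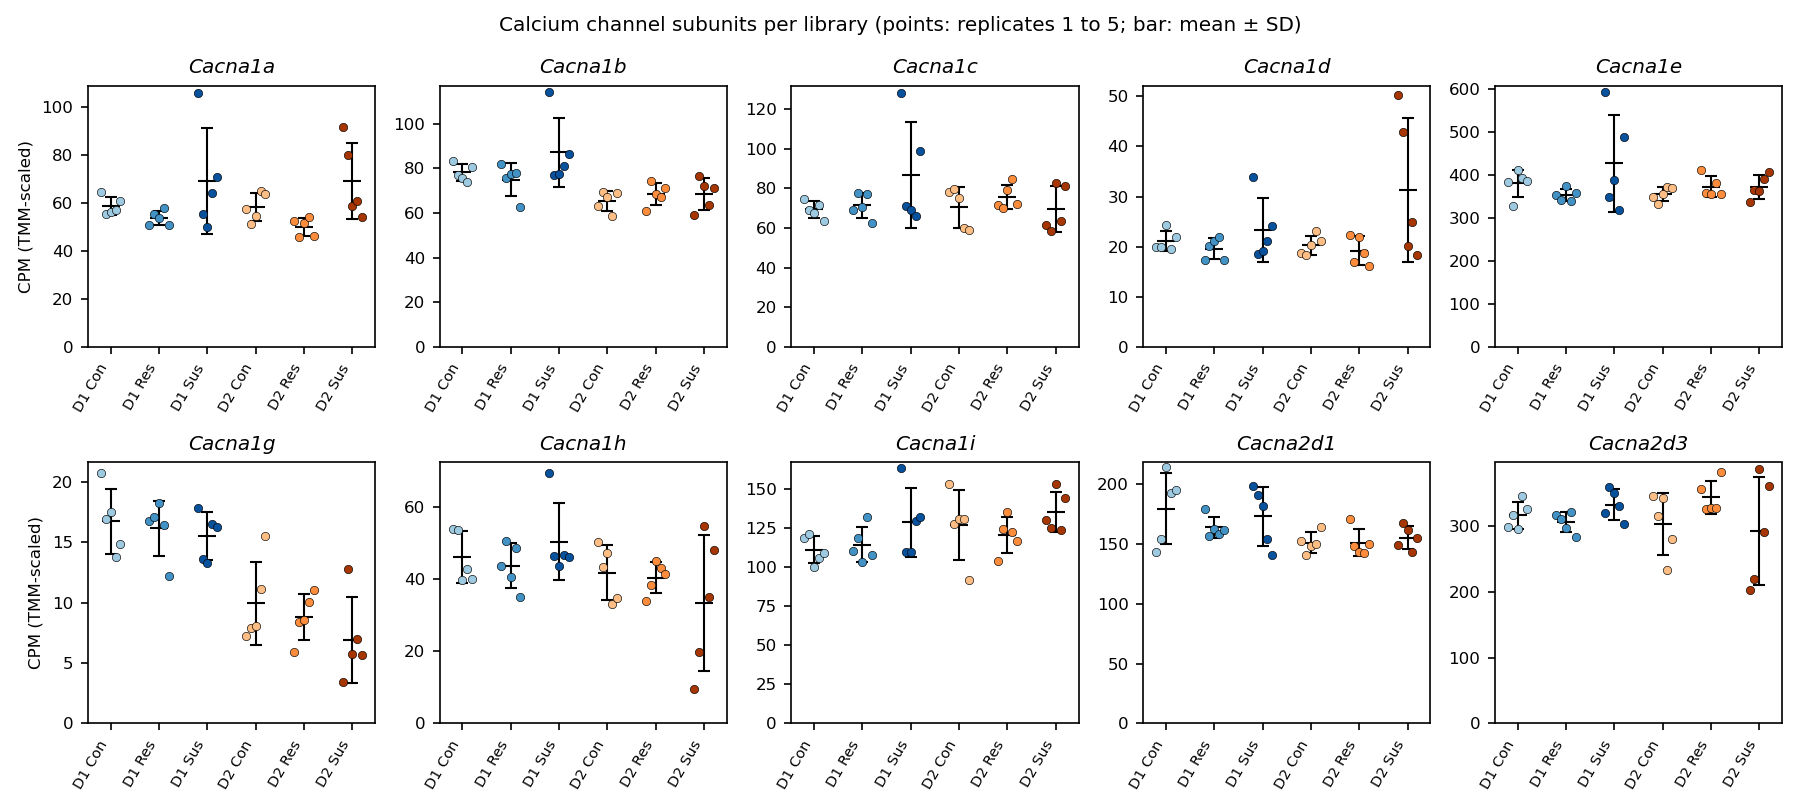
Level of each of the 10 genes in every library, in CPM on TMM-scaled library sizes with each axis starting at 0. Points are replicates 1 to 5 from left to right within a group, bars the mean ± SD; most D2 points of Cacna1g lie below all D1 points, and D2 Susceptible replicates 1 and 2 lie apart for Cacna1d, Cacna1h and Cacna2d3.

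Cacna1b (ENSMUSG00000004113, chr2:24603887-24763152, minus strand), the N-type pore of presynaptic terminals and the target of ω-conotoxin, was at 114, 77.2, 77.2, 81.1 and 86.5 CPM in D1 Susceptible and 59.0, 76.6, 72.1, 63.7 and 71.2 CPM in D2 Susceptible. All 5 D1 libraries lay above all 5 D2 libraries, as for 2 of 10 members and 8.92% of all genes. The lowest D1 library and the highest D2 library were 77.2 and 76.6 CPM. The log2 difference was 0.34 (SE 0.0949, edgeR adjusted p 0.00901). It was called with any 1 library left out, but not when only the 2 groups were fitted (adjusted p 0.122), nor by voom with sample weights (0.21, adjusted p 0.0801), nor without the 5 libraries that stood apart (0.23, adjusted p 0.0988).

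In the Control libraries Cacna1b was at 83.4, 77.1, 75.6, 73.9 and 80.5 CPM in D1 and 63.0, 69.2, 67.3, 58.8 and 69.1 CPM in D2. Here too the groups did not overlap, for 1 of the 10 members and 11.7% of all genes, and the difference of 0.25 (SE 0.0946, edgeR adjusted p 0.0984) was not called. It was called when only the 2 groups were fitted (adjusted p 0.0298) and without D2 Susceptible replicates 1 and 2 (adjusted p 0.0336). Voom and the fit without the 5 libraries that stood apart called it too. In Resilient libraries it was at 62.5 to 81.7 CPM in D1 and 60.9 to 74.2 CPM in D2, with a difference of 0.13 (SE 0.0946, edgeR adjusted p 0.634).

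Cacna2d1 (ENSMUSG00000040118, chr5:15934691-16374511, plus strand), an α2δ subunit that binds gabapentin, was at 143, 154, 214, 192 and 194 CPM in D1 Control and 152, 141, 148, 149.6 and 164 CPM in D2 Control. D1 Control replicates 1 and 2 lay within the D2 range and the other 3 above it. The difference of 0.25 (SE 0.0960, edgeR adjusted p 0.115) was called without D1 Control replicate 1 (0.33, adjusted p 0.0185) or replicate 2 (0.31, adjusted p 0.0493), and by voom (0.35, adjusted p 0.000314). Cacna2d1 was also called without D2 Susceptible replicates 1 and 2 (0.26, edgeR adjusted p 0.0468) and without the 5 libraries that stood apart. Its differences in Resilient and Susceptible libraries were 0.12 (SE 0.0960, edgeR adjusted p 0.725) and 0.16 (SE 0.0961, edgeR adjusted p 0.245).

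Cacna2d3 (ENSMUSG00000021991, chr14:28904943-29721864, minus strand), the most abundant member per length, lay lower in all 5 D1 Resilient libraries, at 317, 310.0, 297, 321 and 283 CPM, than in all 5 D2 Resilient libraries, at 356, 325, 326, 327 and 381 CPM. Such a lack of overlap held for 2 of the 10 members and 9.7% of all genes. The highest D1 and the lowest D2 library were close, and the difference of -0.17 (SE 0.125, edgeR adjusted p 0.679) was not called. In Control it was 0.06 (SE 0.125, edgeR adjusted p 0.887). In Susceptible libraries the D1 minus D2 difference was 0.19 (SE 0.125, edgeR adjusted p 0.292).

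Of the remaining pore-forming genes, Cacna1a, Cacna1c, Cacna1d, Cacna1e and Cacna1h had Control differences of -0.02 to 0.14, and the widest 95% interval, that of Cacna1h, ran from -0.40 to 0.68. Cacna1i (ENSMUSG00000022416, chr15:80287238-80398279, plus strand), the most abundant T-type gene, had 119, 121, 101, 106 and 109 CPM in D1 Control and 154, 128, 131, 131 and 92.0 CPM in D2 Control. D2 Control replicate 5 was the lowest of the 10 and the other 4 D2 libraries lay above all D1 libraries. The difference (-0.19, SE 0.112, edgeR adjusted p 0.365) was not called by edgeR, and was called by voom (-0.28, adjusted p 0.0149) and without the 5 libraries that stood apart (-0.29, adjusted p 0.0261). In Susceptible libraries the differences of Cacna1c (0.31, SE 0.137, edgeR adjusted p 0.0965), Cacna1d (-0.43, SE 0.199, edgeR adjusted p 0.112) and Cacna1h (0.59, SE 0.265, edgeR adjusted p 0.107) passed an unadjusted p of 0.05 and were not called. Without D1 Susceptible replicate 1 that of Cacna1c was 0.13 and that of Cacna1d -0.59, the latter called (edgeR adjusted p 0.0323). Without D2 Susceptible replicate 3 or 5 edgeR called Cacna1c (0.40 and 0.39), Cacna1d (-0.54 and -0.56) and Cacna1h (0.86 and 0.78). These fits called 6218 and 5817 of all genes. Cacna1c was also called without D1 Susceptible replicate 2, 3 or 4. Without D2 Susceptible replicates 1 and 2 the differences of Cacna1d and Cacna1h were 0.15 and 0.15.

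**Figure D3:**
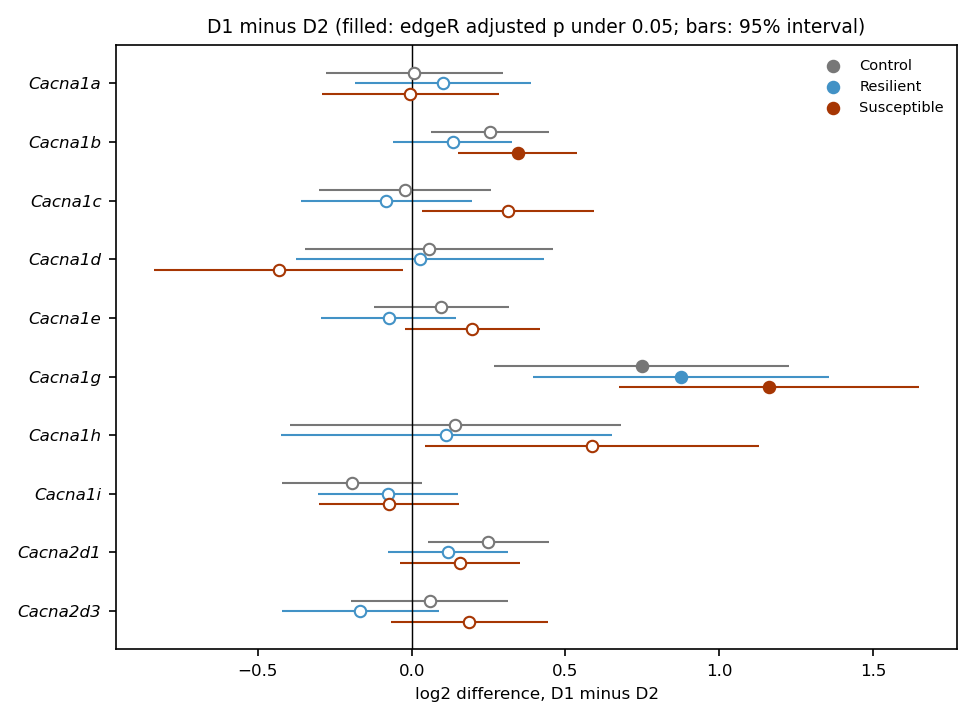
Difference between the classes, D1 minus D2 on the log2 scale, for each gene in Control, Resilient and Susceptible libraries. Points are edgeR estimates with 95% intervals, filled where the adjusted p was under 0.05; Cacna1g is filled and right of 0 in all 3 conditions, and Cacna1b is filled in Susceptible.

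Other cell markers differed between the classes too. Summed markers of cortical projection neurons (5 genes) were 503 to 967 CPM in D1 and 169 to 565 CPM in D2 libraries. Interneuron markers (7 genes) were 385 to 582 and 98.1 to 413 CPM, and endothelial and mural markers (7 genes) 16.5 to 38.8 and 61.6 to 299 CPM. Oligodendrocyte markers (6 genes) were 383 to 998 CPM in D1 and 433 to 1894 CPM in D2, astrocyte markers (6 genes) 245 to 688 and 269 to 611 CPM, and microglia markers (6 genes) 8.18 to 40.1 and 13.0 to 45.5 CPM. In Control libraries 4 of 5 cortical and 4 of 7 interneuron markers were called higher in D1, and 5 of 7 endothelial and mural and 3 of 6 astrocyte markers higher in D2. Slc5a7 (interneurons), Chrm4 (D1 neurons) and P2ry12 (microglia) were at 0 in D2 Susceptible replicate 2 alone, and Acta2 (mural cells) in that library, in D1 Control replicate 5 and in D1 Resilient replicate 2. Among D2 libraries the highest Cacna1g values were 15.5 CPM in D2 Control replicate 5, which had 1182 CPM of D1 markers, and 12.8 CPM in D2 Susceptible replicate 2, with 479 CPM of D1 markers. D2 Resilient replicate 5, with 1797 CPM, had 11.0 CPM of Cacna1g. The part of these markers in the class differences was not tested.

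Over all 30 libraries the members spanned different ranges. Cacna1e had 318 to 593 CPM (median 364), Cacna1i 92.0 to 164 CPM (median 123), Cacna1b 58.8 to 114 CPM (median 74.0), Cacna2d1 141 to 214 CPM (median 155) and Cacna2d3 203 to 387 CPM (median 320.1). Cacna1a had 46.0 to 106 CPM (median 55.7), Cacna1c 58.2 to 128 CPM (median 71.4), Cacna1d 16.1 to 50.3 CPM (median 20.2), Cacna1h 9.45 to 69.4 CPM (median 43.5) and Cacna1g 3.41 to 20.7 CPM (median 13.0). The highest value lay in D1 Susceptible replicate 1 for Cacna1a, Cacna1b, Cacna1c, Cacna1e, Cacna1h and Cacna1i. How many of all genes were highest in that library was not counted. By the lowest and highest library, Cacna1g and Cacna1h varied most and Cacna2d1 least.

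The second set of comparisons asked whether the genes changed with CWDS or differed between Susceptible and Resilient mice within a class. No member was called by edgeR in any of the 6 comparisons. Susceptible and Resilient share their Control libraries, so the comparisons within a class are not independent. In D1, 0% of all genes were called in each of the 3 comparisons. At an unadjusted edgeR p under 0.05 there was 1 of 10 members in Susceptible against Control, where 2.4% of all genes tested passed, 0 in Resilient against Control (2.6%) and 3 in Susceptible against Resilient (3.49%). DESeq2 and voom called 0 members in all 3, where DESeq2 called 0.0155%, 0.00516% and 0.0413% of all genes and voom 0%, 0.929% and 0.0723%. In D2 the background was 0.00516% in Susceptible against Control, 0% in Resilient against Control and 0.0516% in Susceptible against Resilient. There 2, 0 and 2 of the 10 members passed unadjusted, where 15.7%, 4.2% and 19.1% of all genes did, so these shares of the members are close to the background. DESeq2 called 0, 0 and 2 members, where it called 1.32%, 0.0258% and 5.04% of all genes. Voom called 0 members in each, and 0%, 0.0103% and 0.00516% of all genes.

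Members that passed an unadjusted p of 0.05 were Cacna1c in D1 Susceptible against Control, Cacna1a, Cacna1b and Cacna1e in D1 Susceptible against Resilient, Cacna1d and Cacna1g in D2 Susceptible against Control, and Cacna1a and Cacna1d in D2 Susceptible against Resilient. The member medians of the log2 difference were 0.15 in D1 Susceptible against Control (all genes -0.01), -0.07 in D1 Resilient against Control (all genes -0.01) and 0.21 in D1 Susceptible against Resilient (all genes -0.01). Without D1 Susceptible replicate 1 those of the Susceptible libraries were 0.03 against Control and 0.09 against Resilient. In D2 they were 0.05 in D2 Susceptible against Control (all genes -0.03), -0.02 in D2 Resilient against Control (all genes -0.01) and 0.00 in D2 Susceptible against Resilient (all genes -0.03). Without D2 Susceptible replicates 1 and 2 those of the Susceptible libraries were 0.09 and 0.03. The 95% intervals were uneven in width. In D1 Resilient against Control that of Cacna2d1 was -0.33 to 0.06 on the log2 scale and that of Cacna1b -0.25 to 0.13, whereas that of Cacna1h ran from -0.62 to 0.46. In D2 Resilient against Control the interval of Cacna1e was -0.15 to 0.29 and that of Cacna1g -0.66 to 0.30.

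**Figure D4:**
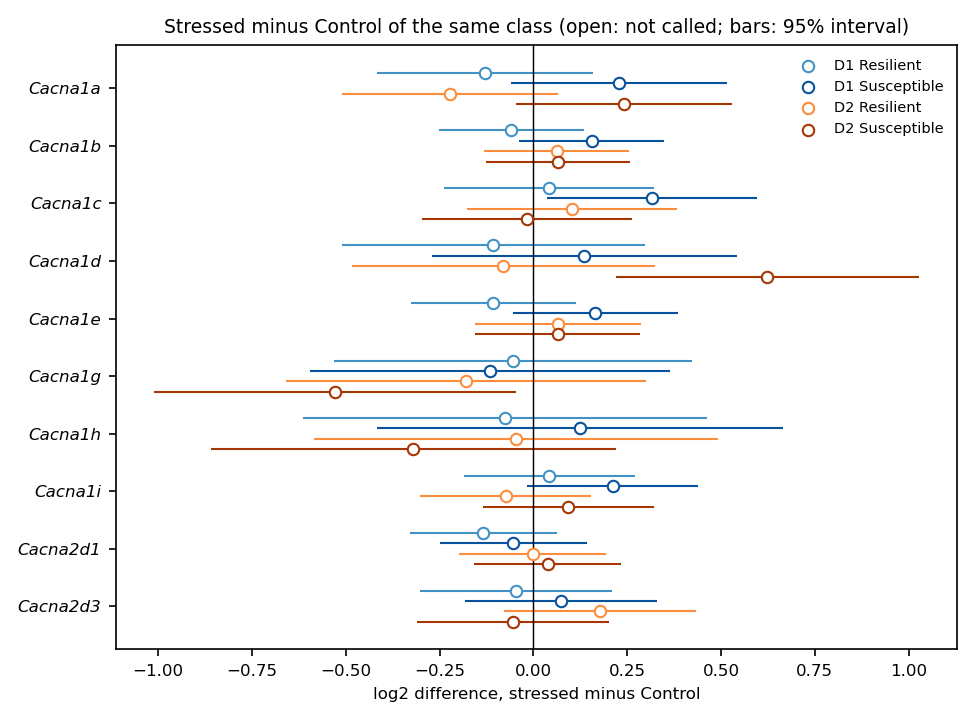
Stressed minus Control libraries of the same class on the log2 scale, for Resilient and Susceptible in D1 (blue) and D2 (orange and brown). Open points are edgeR estimates, none called, with 95% intervals; Cacna1d in D2 Susceptible lies farthest right, at 0.62, and Cacna1g in D2 Susceptible farthest left, at -0.53.

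Cacna1g in D2 Susceptible, at 3.41, 12.8, 5.72, 6.97 and 5.63 CPM, lay below all 5 D2 Control libraries (7.23 to 15.5 CPM) in every replicate but replicate 2. The difference of -0.53 (SE 0.236, edgeR adjusted p 0.276) was not called. It was -0.88 without D2 Susceptible replicate 2, -0.36 without D2 Susceptible replicate 1, -0.31 without D2 Control replicate 5 and -0.71 without D2 Susceptible replicates 1 and 2, again with no call.

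Cacna1d (ENSMUSG00000015968, chr14:30039939-30491455, minus strand), the L-type pore that opens at the more negative voltages, had the largest difference among the 6 stress comparisons. It was at 18.7, 18.4, 20.4, 23.0 and 21.1 CPM in D2 Control, 22.4, 17.0, 21.9, 18.7 and 16.1 CPM in D2 Resilient and 50.3, 42.9, 20.1, 25.0 and 18.3 CPM in D2 Susceptible. D2 Susceptible replicates 1 and 2 lay above all other 28 libraries, of which the highest had 34.0 CPM, replicates 3 and 5 lay within the range of the other D2 groups, and replicate 4 lay above it. Against Control the difference was 0.62 (SE 0.198, edgeR adjusted p 0.175) and against Resilient 0.70 (SE 0.198, edgeR adjusted p 0.0771), neither called. DESeq2 called the latter (0.73, adjusted p 0.0242). Leaving out replicate 3 or 5 of D2 Susceptible gave calls by edgeR against Control (0.74 and 0.76), and leaving out replicate 3, 4 or 5 gave calls against Resilient (0.83, 0.77 and 0.85). Calls rose over all genes in these fits, to 828 and 170 against Control, where the main fit called 1. Against Resilient they rose to 1964, 412 and 1607, where the main fit called 10. Without replicates 1 and 2 the differences of Cacna1d were 0.05 and 0.13.

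Cacna1a (ENSMUSG00000034656, chr8:84388440-84640246, plus strand), the P/Q-type pore and a main driver of release at central synapses, was high in the same libraries. It was at 52.5, 46.0, 51.6, 54.1 and 46.2 CPM in D2 Resilient and 91.5, 80.0, 58.8, 60.7 and 54.3 CPM in D2 Susceptible, and no Susceptible library lay within the Resilient range, as for 1.5% of all genes. D2 Susceptible replicates 1 and 2 again held the highest values, and replicate 5 was within 1 CPM of the highest Resilient library. The difference of 0.46 (SE 0.141, edgeR adjusted p 0.0869) was not called by edgeR and was called by DESeq2 (0.48, adjusted p 0.0428). It was called by edgeR without replicate 3 (0.51) or replicate 5 (0.54). These fits called 1964 and 1607 of all genes, where the main fit called 10. The difference was 0.21 without replicates 1 and 2 (edgeR adjusted p 0.985). Against Control, where its libraries had 51.3 to 65.0 CPM, the difference was 0.24 (SE 0.141, edgeR adjusted p 0.403).

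The same pair of libraries lay low for other members. Cacna1h (ENSMUSG00000024112, chr17:25374285-25433783, minus strand), a T-type pore, was at 9.45, 19.9, 54.7, 35.0 and 48.1 CPM in D2 Susceptible, and replicates 1 and 2 lay below all other 28 libraries, of which the lowest had 33.1 CPM. Cacna2d3 was at 203, 219, 387, 290.1 and 359 CPM, again with replicates 1 and 2 below all other 28, whose lowest had 233 CPM. How many of all genes had this pair outside the other 28 libraries, as Cacna1d, Cacna1h and Cacna2d3 did, was not counted. The pattern is therefore not read as a trait of the members. The group differences against Control were not called, at -0.32 (SE 0.263, edgeR adjusted p 0.569) for Cacna1h and -0.06 (SE 0.125, edgeR adjusted p 0.859) for Cacna2d3. In replicates 1 and 2 Cacna1d stood at 2.49 and 2.12 times the geometric mean of D2 Control, Cacna1a at 1.57 and 1.38 times and Cacna1h at 0.229 and 0.483 times. Cacna1g differed between the pair, at 0.358 times in replicate 1 and 1.34 times in replicate 2. Cacna1e and Cacna1i stayed within 0.946 to 1.04 times in both libraries. As a share of the L-type level per length, Cacna1d was 27.4% to 57.8% across D2 Susceptible and 27.9% to 39.3% across D2 Control. These 2 libraries also had the fewest genes with a count and the highest summed oligodendrocyte markers (6 genes), at 1894 and 1454 CPM where the other 13 D2 libraries had 433 to 1363 CPM. The part of either in these values was not tested.

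In the class comparison of Susceptible mice the D1 minus D2 difference of Cacna2d3 went, without these 2 libraries, from 0.19 to -0.03, neither called. That of Cacna1g went from 1.16 to 1.36 and stayed called (adjusted p 3.04e-05).

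**Figure D5:**
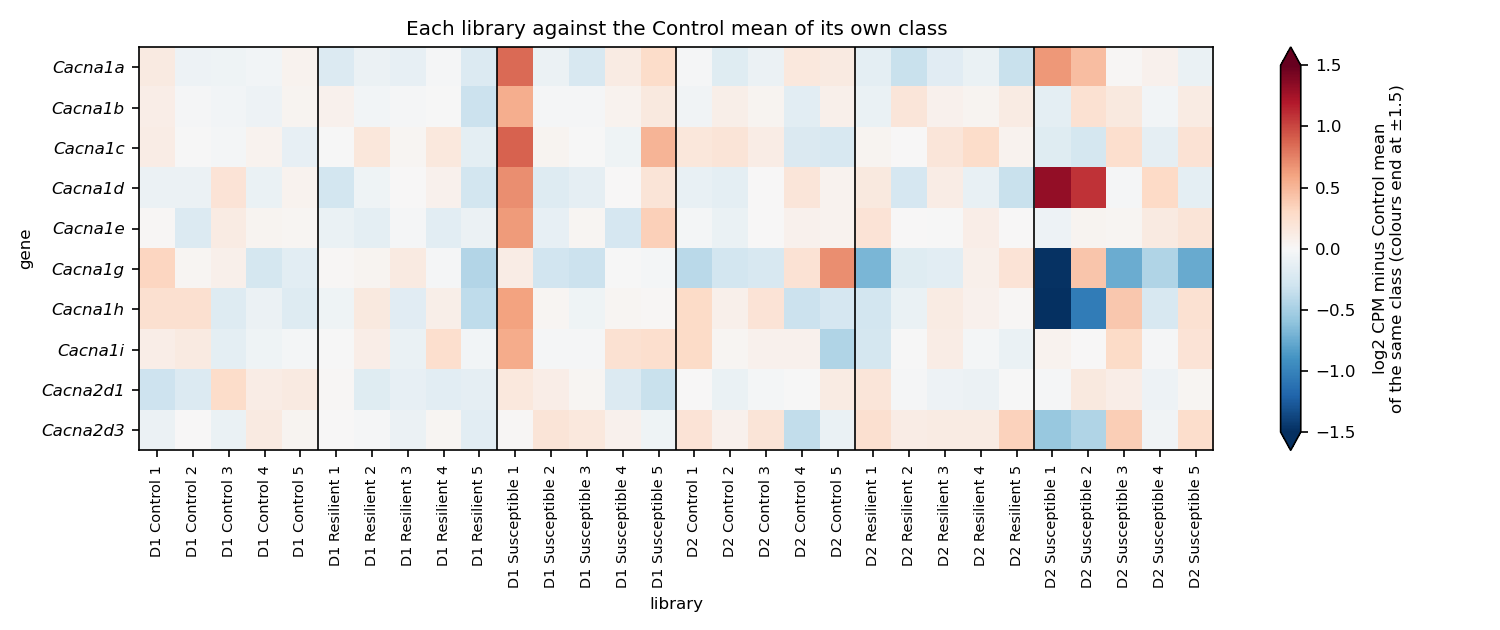
Each library's level of each gene against the mean log2 CPM of the Control libraries of its own class, from -1.5 (blue) to 1.5 (red), with groups divided by lines. D2 Susceptible replicates 1 and 2 are red for Cacna1d and blue for Cacna1h, and D1 Susceptible replicate 1 is red for most pore-forming genes.

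In D1 a single library stood out in the stress comparisons, D1 Susceptible replicate 1, in which Gm42418 took most of the counts. It held the highest value of its group for 9 of the 10 members, the exception being Cacna2d3, and its median log2 distance from D1 Control over the 10 genes was 0.58. The TMM factor of this library was 0.340. The same count and median were not taken over all genes, so neither is read as a trait of the members. Cacna1c (ENSMUSG00000051331, chr6:118587240-119196418, minus strand), the more abundant L-type pore, was at 128, 71.1, 68.9, 66.0 and 98.9 CPM in D1 Susceptible and 74.6, 69.1, 67.7, 71.7 and 63.4 CPM in D1 Control. Replicates 1 and 5 lay above all D1 Control libraries, and the other 3 within their range. The difference was 0.32 (SE 0.137, edgeR adjusted p 1.00), with an unadjusted edgeR p of 0.0287, and 0.14 without replicate 1. Replicates 1 and 5 were the 2 highest D1 Susceptible libraries for 6 of the 10 members, and replicate 5 had the next largest share of Gm42418 (5.46%). How many of all genes were highest in these 2 libraries was not counted either. Cacna1e (ENSMUSG00000004110, chr1:154390731-154884501, minus strand), the R-type pore, was at 593, 348, 387, 318 and 488 CPM in D1 Susceptible and 353, 341, 375, 340.1 and 358 CPM in D1 Resilient, a difference of 0.27 (SE 0.108, edgeR adjusted p 1.00) with the same 2 libraries on top, and 0.12 without replicate 1. Against Resilient, Cacna1a went from 0.36 to 0.16 and Cacna1b from 0.22 to 0.10 when that library was left out. Summed astrocyte markers (6 genes) were 593 and 539 CPM in replicates 1 and 5 and 322 to 349 CPM in the other 3. The part of Gm42418 and of these markers in the values was not tested.

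Whether the response differed between the classes was tested as the D1 change minus the D2 change. No member was called by edgeR, DESeq2 or voom in any of the 3 such tests, and 0% of all genes were called by edgeR in each. Of all genes, DESeq2 called 5 for the Susceptible against Control change, 7 for Resilient against Control and 45 for Susceptible against Resilient. Voom called 0, 160 and 0 of all genes in the same order. At an unadjusted edgeR p under 0.05 there were 0 members, where 7.79% of all genes passed for the Susceptible against Control change, 4.99% for Resilient against Control and 12.4% for Susceptible against Resilient. For Cacna1g the difference of the Susceptible changes was 0.41, with a 95% interval from -0.26 to 1.09. Without D2 Susceptible replicates 1 and 2 it was 0.60 (SE 0.264) and again not called. The larger class difference of Cacna1g in Susceptible libraries was therefore not shown to differ from that in Control. For Cacna1d the same quantity was -0.49, with an interval from -1.06 to 0.08 (edgeR adjusted p 0.659). It ran from -0.63 to -0.24 with 1 library left out, and was 0.09 without D2 Susceptible replicates 1 and 2, the pair in which Cacna1d was highest.

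A wider list of 35 genes held the other channel subunits (17), proteins that regulate the channels (12) and calcium-activated potassium channels (6). Of these, 30 passed the filter on low counts, and edgeR called 0 in each of the 6 stress comparisons and each of the 3 tests between the classes' responses. Of the 30, 0 to 8 passed an unadjusted edgeR p of 0.05 in these 9 tests. The counts follow for Susceptible against Control, Resilient against Control and Susceptible against Resilient, in that order. In D1 they were 0, 0 and 1, where 2.4%, 2.6% and 3.49% of all genes passed. In D2 they were 8, 2 and 5, where 15.7%, 4.2% and 19.1% passed. In the tests between the responses they were 2, 2 and 3, where 7.79%, 4.99% and 12.4% passed. DESeq2 called 2 in D2 Susceptible against Resilient and 1 in the test of the Susceptible against Resilient response, and voom called 1 in D1 Resilient against Control and 1 in the test of the Resilient response. Each of the other counts by DESeq2 and voom in these 9 tests was 0. Over all genes DESeq2 called 976 and 45 in the tests where it called 2 and 1 of the 30. Voom called 180 and 160 where it called 1 and 1. Between the classes edgeR called 4 of 30 in Control (1 higher and 3 lower in D1), where 8.3% of all genes were called, 5 of 30 in Resilient (3 and 2), where 6.65% were, and 10 of 30 in Susceptible libraries (5 and 5), where 23.9% were. Cacna1f, Cacng6, Cacng7, Cacng8 and Rims1 did not pass, the last 4 with at most 4 counts in any library. Such counts are not read here as absence of the transcript, since the part of annotation and counting in them was not tested.

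Among auxiliary subunits, Cacna2d2, another α2δ subunit, was lower in D1 Control and D1 Resilient. It was at 86.3, 73.0, 59.0, 63.0 and 55.5 CPM in D1 Control and 122, 136, 123, 80.3 and 74.6 CPM in D2 Control, with overlap between the groups (difference -0.67, SE 0.175, edgeR adjusted p 0.0133). In Resilient libraries the difference of Cacna2d2 was -0.60 (SE 0.174, edgeR adjusted p 0.0307). In Susceptible libraries its groups overlapped, at 54.4 to 97.3 CPM in D1 and 65.5 to 111 CPM in D2, and the difference of -0.31 (SE 0.175, edgeR adjusted p 0.200) was not called. The Control call was lost without D1 Control replicate 3 or 5 or D2 Control replicate 2 (adjusted p up to 0.0642), and the Resilient call when any 1 of 7 of the 10 libraries was left out. Cacnb3, an intracellular β subunit, was higher in D1 in Resilient (0.40, SE 0.116, edgeR adjusted p 0.0303) and Susceptible libraries (0.50, SE 0.116, edgeR adjusted p 0.00252). The Resilient call of Cacnb3 was lost when any 1 of 5 of the 10 libraries was left out, and the Susceptible call when the 2 groups were fitted alone. Without D2 Susceptible replicates 1 and 2 the Susceptible difference of Cacnb3 was 0.33 (adjusted p 0.0380).

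Cacng4 and Cacng2 are named as channel γ subunits but are best known as auxiliary proteins of AMPA receptors. Cacng4 was lower in D1 Control (-0.67, SE 0.209, edgeR adjusted p 0.0429), a call lost when any 1 of the 10 libraries was left out, and in D1 Susceptible (-1.26, SE 0.211, edgeR adjusted p 0.000112), a call that held under all 8 alternatives and with any 1 library left out. It was at 487, 435, 156, 215 and 181 CPM in D2 Susceptible, so replicates 1 and 2 stood apart here as well, and without them the difference was -0.55 (adjusted p 0.00237). Cacng2 was lower in D1 Susceptible (-0.93, SE 0.195, edgeR adjusted p 0.00116), against D2 Susceptible values of 453, 285, 133, 195 and 160.1 CPM. Without D2 Susceptible replicates 1 and 2 it was -0.31 and not called (adjusted p 0.0719).

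Of the potassium channels that calcium opens, Kcnma1, the pore of the large-conductance channel, was higher in D1 under all 3 conditions. It was at 211, 178, 235, 200.0 and 209 CPM in D1 Control and 147, 142, 155, 130.2 and 174 CPM in D2 Control. The groups did not overlap, as for 11.7% of all genes (difference 0.47, SE 0.109, edgeR adjusted p 0.00510). The difference was 0.36 (SE 0.109, edgeR adjusted p 0.0433) in Resilient libraries, where it was lost with DESeq2 and when any 1 of 8 of the 10 libraries was left out, and 0.47 (SE 0.109, edgeR adjusted p 0.00246) in Susceptible libraries. Its neuronal β subunit Kcnmb4 was higher in D1 Resilient (0.46, SE 0.105, edgeR adjusted p 0.00401) and D1 Susceptible (0.37, SE 0.105, edgeR adjusted p 0.0102). The Susceptible calls of both were lost when the 2 groups were fitted alone.

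Among the small GTPases of the RGK family, which inhibit the channels, Rem1 had 2 counts in the 5 D1 Control libraries together and 193 in the 5 D2 Control libraries, a ratio of 0.0112 (95% exact Poisson interval 0.00134 to 0.0410, counting error only; edgeR adjusted p 0.0126). D2 Control replicate 5 held 96 of the 193, and the highest level in any library was 4.17 CPM, in D2 Susceptible replicate 1. Gem was lower in D1 Resilient, at 0.637, 0.986, 0.992, 1.12 and 0.997 CPM against 3.58, 3.24, 3.10, 1.69 and 1.05 CPM (difference -1.42, SE 0.399, edgeR adjusted p 0.0243), a call lost when any 1 of 7 of the 10 libraries was left out. Rem2 was lower in D1 Susceptible (-0.29, SE 0.0888, edgeR adjusted p 0.0163), a call lost without D1 Susceptible replicate 5 or D2 Susceptible replicate 1 or 2 and under 4 of the 8 alternatives, and -0.16 without D2 Susceptible replicates 1 and 2. The other 4 genes called in Susceptible libraries, named after their values were seen, were Cacnb4 and Rem1, lower in D1, and Stac2 and Kcnn3, higher in D1. None of these 4 was called without D2 Susceptible replicates 1 and 2.

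The 3 members whose group means spanned the widest range were Cacna1g (1.40 on the log2 scale between the highest and the lowest of the 6 groups), Cacna1h (0.83) and Cacna1d (0.60). Among 15176 other genes, those with the most similar 6 group means, by root mean square difference in log2 CPM after centring, were Stx1a (0.0240) and Lrfn1 (0.0320) for Cacna1g, Tsc2 (0.0180) and Cptp (0.0295) for Cacna1h and Itsn2 (0.0330) and Akap13 (0.0401) for Cacna1d. The 6 means share libraries and scaling across genes, and the values are a description of these libraries. For Cacna1h and Cacna1d the D2 Susceptible mean includes replicates 1 and 2, which lay outside all other libraries.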

How the data were processed

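Female accumbens RiboTag libraries were grouped by title into 6 groups of 5. The deposited values are read counts per gene. Per the submitters' processing notes, HISAT2, HTSeq and the GRCm38 (mm10) build were used; tool versions, the annotation release and the strand setting: not given in the sources used here. Symbols and lengths came from GENCODE M21. All 30 columns of the deposited count table equalled the library files. Reads outside genes, 10.1 to 13.7% in 27 libraries, 53.3% in D1 Susceptible replicate 1 and 15.7% and 15.0% in D2 Susceptible replicates 1 and 2, were left out. Replicates within a group differed beyond sampling noise, with a chi-square per degree of freedom of at least 12.8 over 60 pairs. A level of 3 counts, what a count of 0 allows, was 0.0430 to 0.304 CPM.

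Genes were kept by filterByExpr (minimum count 10, minimum total 15), given TMM scaling, and fitted in edgeR 4.0.16 with the robust quasi-likelihood test in a model of all 6 groups, with Benjamini-Hochberg adjustment over 19368 genes at 0.05, in R 4.3.3. DESeq2 1.42.0 and limma 3.58.1 (voom with sample quality weights) were alternatives, beside DESeq2 size factors, no filter, only the groups compared, the replicate number as a block, and libraries left out. Figures and sequence comparisons used Python 3.11.15, pandas 2.3.3 and matplotlib 3.10.9. The scripts were tested on simulated data. All 10 members were named, and of the other channel genes those called with the smallest adjusted p, up to 3 in each direction and comparison. The members and lists were chosen with earlier results of these data known.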

Additional observations from a re-analysis of the deposited data

Results flagged for a closer look

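In 4 of the 60 sets of 5 libraries (10 genes in 6 groups), 1 library stood far from the other 4, by Dixon's ratio above 0.71; chance alone gives about 5% of sets. Cacna1b was 114.044 CPM in D1 Susceptible replicate 1, where the other 4 libraries had 77.2 to 86.5 CPM. Cacna1h was 69.4005 CPM in the same library, where the others had 43.8 to 46.6 CPM. Cacna2d1 was 179.052 CPM in D1 Resilient replicate 1, against 156 to 162 CPM in the others. It was 170.258 CPM in D2 Resilient replicate 1, against 142 to 149.8 CPM.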

How the results depend on the processing

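The number of members called was compared over 12 comparisons and 8 alternatives. It was within 1.5 times the main count in 87 of 96 cases and moved in 9. In D2 Susceptible against Resilient, DESeq2 called 2 (and 5.04% of all genes) where edgeR called 0. In D1 against D2 Control, where 1 and 8.3% of all genes were called, DESeq2 size factors gave 0 (8.29% of all genes), a fit of the 2 groups 2 (15.6%), voom 4 (28.5%), leaving out D2 Susceptible replicates 1 and 2 gave 3 (15.3%), and leaving out the 5 libraries that stood apart, chosen after seeing the data, 4 (17.3%). In D1 against D2 Susceptible, where 2 and 23.9% of all genes were called, a fit of the 2 groups, voom and leaving out those 5 libraries each gave 1 (5.48%, 17.0% and 11.1%). With 1 library left out in turn, the count was 0 to 1 in D2 Susceptible against Control, 0 to 2 in D2 Susceptible against Resilient, 0 to 1 in D1 against D2 Control, 0 to 1 in D1 against D2 Resilient, 2 to 6 in D1 against D2 Susceptible, and 0 in each of the other 7 comparisons. The 1 in D2 Susceptible against Control came with 828 or 170 of all genes called, where the main fit called 1. The 1 or 2 against Resilient came with 412 to 1964, where the main fit called 10. The 4 to 6 in D1 against D2 Susceptible came with 4041 to 6218, where the main fit called 4621. The counts of 0 in D1 against D2 Control came with 981 to 1361, and that in Resilient with 960, where the main fit called 1608 and 1288. No member difference called in the main fit changed sign under these settings. In D1 against D2 Susceptible, Cacna1d was called at -0.59 (edgeR adjusted p 0.0323) without D1 Susceptible replicate 1. It was 0.15 and not called without D2 Susceptible replicates 1 and 2. Cacna2d3 was called at 0.33 (edgeR adjusted p 0.0359) without D2 Susceptible replicate 3 and was -0.03, not called, without replicates 1 and 2. The main fit called neither. The cause of these moves was not tested.

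With the replicate number as a block, the members called were 1, 1 and 2 in D1 against D2 Control, Resilient and Susceptible and 0 elsewhere, as without it. Of all genes 1497, 1230 and 4173 were called in these class comparisons with the block, and 1608, 1288 and 4621 without it. No pairing of libraries by number was seen: over 75 pairs of groups and numbers, deviations from the group means correlated at -0.14 to 0.07, none above 0.1. Of the 30 libraries, 1 correlated best with a library of its own number. A weak link between libraries of the same number could go unseen in this. The block ended the calls of Cacnb4 and Rem1 in D1 against D2 Susceptible (adjusted p 0.0714 and 0.0854). Of the members, the lowest Cacna1g value rested on 159 counts. Of the other genes, Rem1 had 2 counts over D1 Control.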
